A study of Danio rerio with 18 samples.

Results

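The genes described here are 57 zebrafish genes of DNA replication and DNA repair, of 8793 genes named on the array. They were taken by symbol: every gene whose array annotation begins with the name of an origin, helicase, clamp, polymerase, nucleotide supply or repair family (such as mcm, orc, gins, rfc, pola, rrm, rad5 or xrcc) was taken. The rule uses no measured value, but it was set with earlier results of these data known. Where a gene had several probe sets, the one with the highest mean over 18 arrays stood for it. By their roles, 21 members license origins or unwind DNA (orc1, orc2, orc3, orc4, orc5, orc6, cdc6, cdt1, mcm2, mcm3, mcm4, mcm5, mcm6, mcm6l, mcm7, mcm9, cdc45, gins1, gins2, gins3 and gins4). A further 9 are polymerase and primase subunits (pola1, pola2, prim1, pold1, pold2, pold3, pole2, pole3 and pole4), and 10 are the sliding clamp, its loader, the single-strand binding protein and the enzymes that join the lagging strand (pcna, rfc1, rfc3, rfc4, rfc5, rpa1, rpa2, rpa3, fen1 and lig1). Nucleotide supply has 5 members (rrm1, rrm2l, rrm2b, tyms and dut), histone deposition and mismatch repair have chaf1b and msh6, the rad5 names cover 7 (rad51ap1, rad51b, rad51c, rad51d, rad54b, rad54l and rad54l2), and the xrcc names cover 3 (xrcc1, xrcc5 and xrcc6).

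Before a cell copies its genome, the origin recognition complex, Cdc6 and Cdt1 load the Mcm helicase at origins. Cdc45 and the GINS complex then activate the helicase, and the polymerases follow, held to the template by the Pcna ring that replication factor C loads. In the vertebrate retina these genes are transcribed in dividing progenitors, and a cell that leaves the cycle to become a neuron stops using most of them, so their levels in a whole tissue are often read beside its share of dividing cells. The repair members have wider use: Rad54 acts in homologous recombination, the Ku proteins encoded by xrcc5 and xrcc6 in end joining, and Xrcc1 is a scaffold for single-strand break repair.

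RNA came from zebrafish of strain AB at 52 hours post fertilization, either wild type or young mutants. The young line carries a mutation in smarca4, named smarca4a in the present gene table, which encodes the ATPase of the SWI/SNF chromatin remodelling complex. Mutant animals were staged by their wild type siblings, so an age was assigned to them and not read from their own form. Each genotype was taken as whole embryos, as retinas dissected free, and as retinas left joined to the retinal pigment epithelium (RPE), with 3 arrays per group, and each array held RNA from 1 pool. Pools held 10 embryos or tissues, but replicate 2 of mutant retina held 9, and the mutant pools with RPE attached held 6 each. The labels call the pools biological replicates; p-values measure the spread between such pools.

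Values are log2 signals, and differences are log2 differences ± SE from a fit over all 18 arrays in limma, with n = 3 arrays per group. A difference was called where its p, adjusted over 15502 probe sets by Benjamini-Hochberg, was under 0.05. Fold is a ratio above 1 in the direction stated, and is not given for a gene whose lower group mean is under 5.15, the 30th percentile of group means, where background limits the size of a change. The probe set of smarca4a was lower in mutants in every tissue, at -2.26 ± 0.16 in bare retina, -1.64 ± 0.16 with the RPE attached and -2.43 ± 0.16 in embryos. Arrays of a group correlated at 0.987 to 0.996 across probe sets, lowest in mutant retina with RPE. The median SD of a probe set was 0.175 in that group and 0.111 to 0.123 elsewhere. Of the spiked-in controls, hybridization controls averaged 11.15 ± 0.15 (SD, n = 3) there, while the means of the remaining groups lay between 9.46 and 9.78. The SD of these controls was 0.05 in wild type retina with RPE, but 0.51 to 0.58 in the embryo and bare retina groups. The poly-A controls were instead highest in wild type retina with RPE, at 5.58 ± 0.04, the remaining means lying between 4.62 and 4.98. In wild type the labelled tissues were borne out by markers. The mean of 5 measured RPE and melanin markers lay between 5.96 and 6.10 on wild type retina arrays and between 8.02 and 8.45 on wild type RPE-attached arrays. The mean of 5 photoreceptor markers lay between 8.83 and 9.003 on wild type retina arrays and between 6.47 and 6.59 on wild type embryo arrays. Mutant retina arrays had raised lens markers, with means of 6.40 to 8.95 against 5.53 to 5.71 in wild type retina.

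Wild type retina was first compared with wild type whole embryo, which asks where these genes were in use at this stage. All 57 members were higher in retina, against 44.5% of the probe sets tested, with 19.6% lower. The median difference was 0.78, beside 0.24 over all probe sets, and the range ran from 0.32 for rad51b to 1.41 for rrm1. rrm1, the large subunit of ribonucleotide reductase, the enzyme that makes deoxynucleotides, read 9.65, 9.81 and 10.21 on the wild type embryo arrays and 11.11, 11.28 and 11.51 on the wild type retina arrays. The groups did not overlap, and the difference was 2.65-fold (1.41 ± 0.14, adjusted p = 4.67e-08). cdc6, which loads the helicase, was 2.37-fold higher in retina (1.25 ± 0.13, adjusted p = 9.5e-08), and pole3, an accessory subunit of the leading-strand polymerase, was 2.33-fold higher (1.22 ± 0.18, adjusted p = 6.74e-06). The smallest differences were those of the repair genes rad51b (0.32 ± 0.10) and msh6 (0.36 ± 0.10) and of the helicase activator gins1 (0.37 ± 0.11). Calls for mcm6l and pold3 were lost when single arrays were left out. For mcm6l these were wild type embryo replicate 1 and wild type retina replicates 2 and 3, with adjusted p of 0.0662 to 0.0768. For pold3 they were wild type embryo replicate 1 and wild type retina replicate 2, with adjusted p of 0.0671 and 0.0944. In bulk tissue, fewer cells of a type and less RNA per cell cannot be told apart. The mean of 10 mitosis markers ran from 8.07 to 8.33 on wild type embryo arrays and from 9.12 to 9.31 on wild type retina arrays, and that of 2 muscle markers from 13.30 to 13.47 and from 6.87 to 7.06; their part in the result was not tested.

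**Figure D1:**
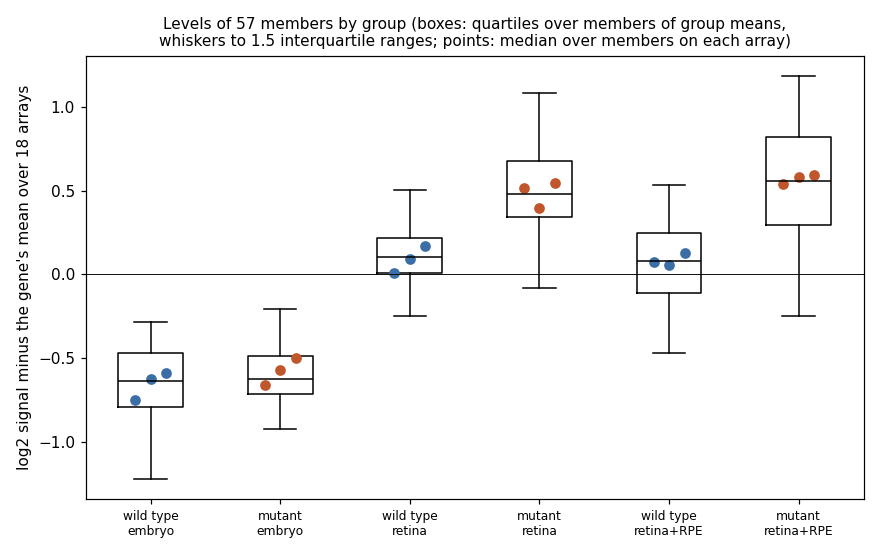
Levels of the 57 members in the 6 groups, on the y axis as log2 signal minus each gene's own mean over 18 arrays. Boxes show the quartiles over members of the group means and coloured points the median over members on each array; the 3 mutant retina arrays lie between 0.39 and 0.54, above the wild type retina arrays at 0.01 to 0.17, while embryo arrays of both genotypes lie between -0.75 and -0.50.

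Over all members the mean signal was 7.48 in wild type embryos, 7.55 in mutant embryos, 8.24 in wild type retina, 8.63 in mutant retina, 8.17 in wild type RPE-attached retina and 8.68 in mutant RPE-attached retina. Each gene was set only against itself. Its highest group mean was in mutant RPE-attached retina for 36 members, in mutant retina for 16, in wild type RPE-attached retina for 4 and in wild type retina for 1. The lowest was in wild type embryos for 36, in mutant embryos for 19 and in wild type RPE-attached retina for 2. The shares of all genes with these highest and lowest groups were not counted, so the counts have no background. Some ranks rest on nearly equal means, such as cdc45 at 8.726 in mutant RPE-attached retina and 8.720 in mutant retina. On single arrays the median member stood 0.01, 0.09 and 0.17 above its own mean in wild type retina and 0.51, 0.39 and 0.54 above it in mutant retina. Wild type RPE-attached arrays stood at 0.07, 0.06 and 0.12, close to bare wild type retina, and mutant RPE-attached arrays at 0.54, 0.58 and 0.59. Few members were dim: 3 had a mean under 5.15 in wild type embryos (rrm2b, xrcc1 and rad51d). rad51d was also under it in mutant embryos. rrm2b, a small-subunit gene of ribonucleotide reductase, was under it in all 6 groups, from 3.97 to 4.54.

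The second comparison asked how the members differed between mutant and wild type retina. Of 57 members, 28 rose and 0 fell, while 8.88% of the probe sets tested rose and 9.41% fell. The median difference was 0.41 beside 0.04 over all probe sets. Above 0 lay 53 of 57 members and 9120 of 15502 probe sets. Replicate numbers paired the embryo and retina arrays, and when that number entered the fit as a block, over those 12 arrays, 37 members rose and 0 fell, against 16.1% and 14.9% of probe sets. The 9 added were tyms (adjusted p = 8.33e-04), fen1 (0.00157), mcm3 (0.00479), rpa2 (0.0111), orc3 (0.0294), pold2 (0.0304), pold3 (0.0353), rad54l2 (0.0452) and rpa3 (0.048). The block kept all 28 calls. The calls below, and the fits that left out single arrays, are those without the block. Without it the changes were small: called members rose between 1.32-fold and 3.80-fold, and only xrcc1 and rad51ap1 reached 2-fold. Neuron markers moved the other way in the same arrays. All 7 fell, and their mean signal was between 9.50 and 9.73 on wild type and between 7.99 and 8.06 on mutant arrays. Of 7 measured retinal progenitor markers 1 rose and 2 fell, and their mean lay between 10.05 and 10.12 on wild type and between 10.08 and 10.15 on mutant arrays. The 3 lens markers rose, from 5.53 to 5.71 on wild type arrays to 6.40 to 8.95 on mutant arrays. The part of these cell types in the result was not tested.

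**Figure D2:**
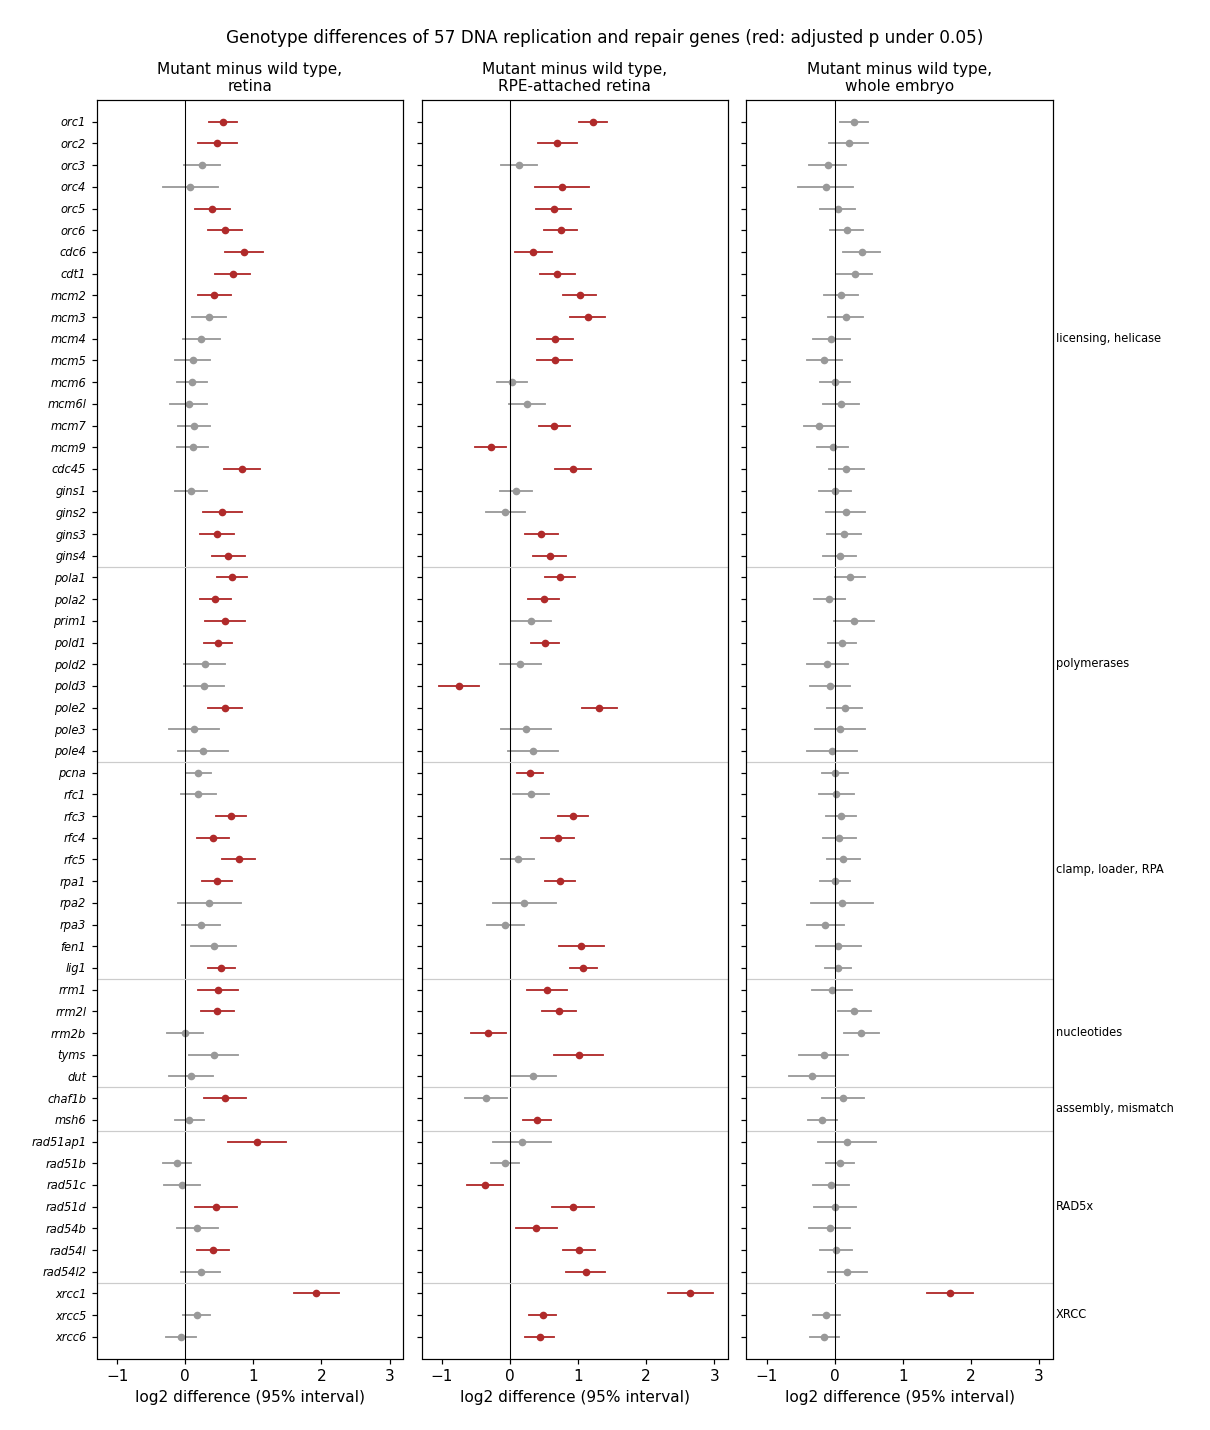
Mutant minus wild type differences of all 57 members in 3 tissues (bare retina, RPE-attached retina, whole embryo), on the x axis as log2 differences with 95% intervals. Members are grouped by role and called differences are red; 28 members rose in retina, 36 rose and 4 fell in RPE-attached retina, and xrcc1 was the 1 member called in embryos.

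Among the 21 licensing and helicase genes, 11 rose in mutant retina, with a median of 0.40. They were the origin recognition genes orc1, orc2, orc5 and orc6, the loaders cdc6 and cdt1, mcm2, and the helicase activators cdc45, gins2, gins3 and gins4. cdc6 read 8.71, 8.87 and 8.83 in wild type and 9.66, 9.58 and 9.75 in mutant retina. Every mutant array was above every wild type array, and the rise was 1.82-fold (0.86 ± 0.13, adjusted p = 5.36e-05). cdc45, which travels with the active helicase, read 7.81, 8.001 and 7.84 in wild type and 8.56, 8.94 and 8.66 in mutant retina. Its groups were likewise separate, and it rose by 0.83 ± 0.12 (adjusted p = 4.41e-05). orc1, an ATPase subunit of the origin recognition complex, read 8.08, 8.01 and 8.09 in wild type and 8.73, 8.61 and 8.52 in mutant retina, a rise of 0.56 ± 0.10 (adjusted p = 2.6e-04). cdt1 rose by 0.70 ± 0.12 and gins4 by 0.63 ± 0.12.

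Of mcm2 to mcm7, which form the ring of the helicase, mcm2 alone was called without the block, and mcm2 and mcm3 with it. mcm2 rose by 0.43 ± 0.12 (adjusted p = 0.0122), while mcm3 (0.35 ± 0.12, adjusted p = 0.0534), mcm4 (0.24 ± 0.13), mcm5 (0.11 ± 0.12), mcm6 (0.10 ± 0.11) and mcm7 (0.13 ± 0.11) were not called. The 95% intervals of mcm5, mcm6 and mcm7 reached no higher than 0.37, 0.32 and 0.36. Whether helicase subunits differed from the loading genes was not tested. The further uncalled genes here were orc3 (0.24 ± 0.13), orc4 (0.07 ± 0.19), mcm6l (0.05 ± 0.13), mcm9 (0.11 ± 0.11) and gins1 (0.08 ± 0.11). The mcm2 call was lost without wild type retina replicate 1 or 2 or mutant retina replicate 3, with adjusted p of 0.0506 to 0.0604. The orc2, orc5, gins2 and gins3 calls were each lost without at least 1 retina array, with adjusted p of 0.0549 to 0.143.

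Of 9 polymerase and primase genes, 5 rose, with a median of 0.44. pola1, the catalytic subunit of the polymerase that starts each new strand, read 8.43, 8.54 and 8.45 in wild type and 9.14, 9.16 and 9.17 in mutant retina. Mutant arrays agreed closely with each other and stood above wild type by 0.68 ± 0.11 (1.61-fold, adjusted p = 6.19e-05). pole2, a subunit of the leading-strand polymerase, read 7.84, 7.82 and 7.77 against 8.39, 8.43 and 8.37, a rise of 0.58 ± 0.12 (adjusted p = 0.00137). pold1, the catalytic subunit of the lagging-strand polymerase, read 9.50, 9.58 and 9.61 against 10.02, 10.16 and 9.94, a rise of 0.48 ± 0.10 (adjusted p = 0.00135). The arrays of these genes did not overlap between genotypes. A second, dimmer pold1 probe set gave 0.23 ± 0.12 and was not called (adjusted p = 0.221). The primase gene prim1 rose by 0.59 ± 0.14 and pola2 by 0.44 ± 0.11, whereas the accessory subunits pold2 (0.28 ± 0.15), pold3 (0.28 ± 0.14), pole3 (0.13 ± 0.18) and pole4 (0.26 ± 0.18) were not called.

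Of the 10 clamp, loader and lagging-strand genes, 5 rose, with a median of 0.41. rfc5, a clamp loader subunit, read 8.24, 8.45 and 8.55 in wild type and 9.07, 9.32 and 9.21 in mutant retina, and rose 1.72-fold (0.79 ± 0.12, adjusted p = 3.8e-05). rfc3, of the same complex, read 9.18, 8.89 and 9.13 against 9.74, 9.62 and 9.83 and rose by 0.67 ± 0.11 (adjusted p = 9.16e-05). Mutant arrays were above wild type arrays for both. lig1, the ligase that seals the lagging strand, read 9.46, 9.54 and 9.62 in wild type and 10.08, 10.0003 and 10.12 in mutant retina, a separate pair of groups with a rise of 0.53 ± 0.09 (1.44-fold, adjusted p = 2.93e-04). rpa1, the large subunit of the single-strand binding protein, rose by 0.46 ± 0.11 and rfc4 by 0.41 ± 0.11. The second probe set of rfc4 gave 0.31 ± 0.15 (adjusted p = 0.179), and the rfc4 call was lost without wild type retina replicate 1 or 2 or mutant retina replicate 3 (adjusted p of 0.0558 to 0.0765).

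pcna, the clamp itself and a usual marker of dividing cells, read 12.81, 12.68 and 12.68 in wild type and 12.98, 12.81 and 12.96 in mutant retina. These values nearly touch, and the difference of 0.19 ± 0.09, with a 95% interval of 0.01 to 0.38, was not called (adjusted p = 0.165). Over the 28 alternative settings that kept the 0.05 threshold and the probe set, its adjusted p ran from 0.0472 to 0.391, and 1 of them called it. fen1, the flap endonuclease, stood at 0.42 ± 0.16 (adjusted p = 0.0782, and 0.00157 with the block), and rfc1, rpa2 and rpa3 at 0.19 ± 0.12, 0.35 ± 0.22 and 0.23 ± 0.13 were not called either.

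In nucleotide supply 2 of 5 genes rose. rrm2l read 12.39, 12.39 and 12.50 in wild type and 12.95, 12.76 and 12.98 in mutant retina (0.47 ± 0.12, adjusted p = 0.00616), and rrm1 read 11.11, 11.28 and 11.51 against 11.77, 11.69 and 11.90 (0.49 ± 0.14, adjusted p = 0.018). Genotypes did not overlap in either gene. The rrm1 call was lost without wild type retina replicate 1 or 2 or mutant retina replicate 3, with adjusted p of 0.0526 to 0.103. tyms, which makes thymidylate, read 9.98, 9.41 and 9.95 against 10.36, 9.88 and 10.34; the second replicate was the lowest in both genotypes, the groups overlapped, and the difference of 0.42 ± 0.17 was not called (adjusted p = 0.111), though it was with the block (adjusted p = 8.33e-04). dut and rrm2b stood at 0.09 ± 0.16 and -0.01 ± 0.12.

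The repair genes were mixed. Of the 7 rad5 genes 3 rose, and of the 3 xrcc genes 1 rose. rad51ap1, a gene of homologous recombination, read 6.16, 6.42 and 6.65 in wild type and 7.09, 7.74 and 7.59 in mutant retina, and rose 2.08-fold (1.06 ± 0.20, adjusted p = 6.6e-04). rad54l, a motor protein of recombination, read 6.63, 6.59 and 6.74 against 7.11, 6.92 and 7.16 (0.41 ± 0.11, adjusted p = 0.012). Both were separate between genotypes. rad51d, also of homologous recombination, read 5.53, 5.17 and 5.44 against 5.98, 5.51 and 6.02, groups that overlapped, with a difference of 0.45 ± 0.15 (adjusted p = 0.0373). Its call was lost without wild type retina replicate 2 or 3 or mutant retina replicate 1 or 3, with adjusted p of 0.0649 to 0.178, and that of rad54l without wild type retina replicate 2 or mutant retina replicate 3 (0.052 and 0.0614). With the block over all 12 embryo and retina arrays both were called in limma, at adjusted p of 5.15e-04 for rad51d and 0.00159 for rad54l. rad51b (-0.12 ± 0.10) and rad51c (-0.05 ± 0.13), with rad54b (0.18 ± 0.14) and rad54l2 (0.22 ± 0.14), were not called. chaf1b, a subunit of the factor that deposits histones behind the fork, read 6.01, 6.501 and 6.11 against 6.89, 6.71 and 6.78 and rose by 0.59 ± 0.15 (adjusted p = 0.00735; 0.0506 without wild type retina replicate 1). msh6, of mismatch repair, read 5.92, 6.07 and 6.13 against 6.18, 5.98 and 6.15 and was not called (0.06 ± 0.10).

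xrcc1 stood apart from the other members in size. It read 6.05, 6.02 and 6.13 in wild type retina and 8.02, 7.89 and 8.08 in mutant retina, a rise of 3.80-fold (1.92 ± 0.16, adjusted p = 1.88e-08). With the RPE attached it read 4.65, 4.99 and 4.59 in wild type and 7.27, 7.39 and 7.52 in mutants (2.65 ± 0.16, adjusted p = 2.29e-10). In whole embryos it read 5.46, 4.80 and 4.78 in wild type and 6.53, 6.60 and 6.98 in mutants (1.69 ± 0.16, adjusted p = 8.09e-07). In each tissue every mutant array was above every wild type array, by more than 1 log2 unit between the means. No fold is given for the last pair of tissues, since their wild type means of 4.74 and 5.01 are in the background range. Of the Ku genes, xrcc5 read 7.75, 7.63 and 7.82 against 7.91, 7.76 and 8.03 in retina (0.17 ± 0.10) and xrcc6 8.45, 8.38 and 8.30 against 8.34, 8.37 and 8.22 (-0.06 ± 0.10), and neither was called.

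**Figure D3:**
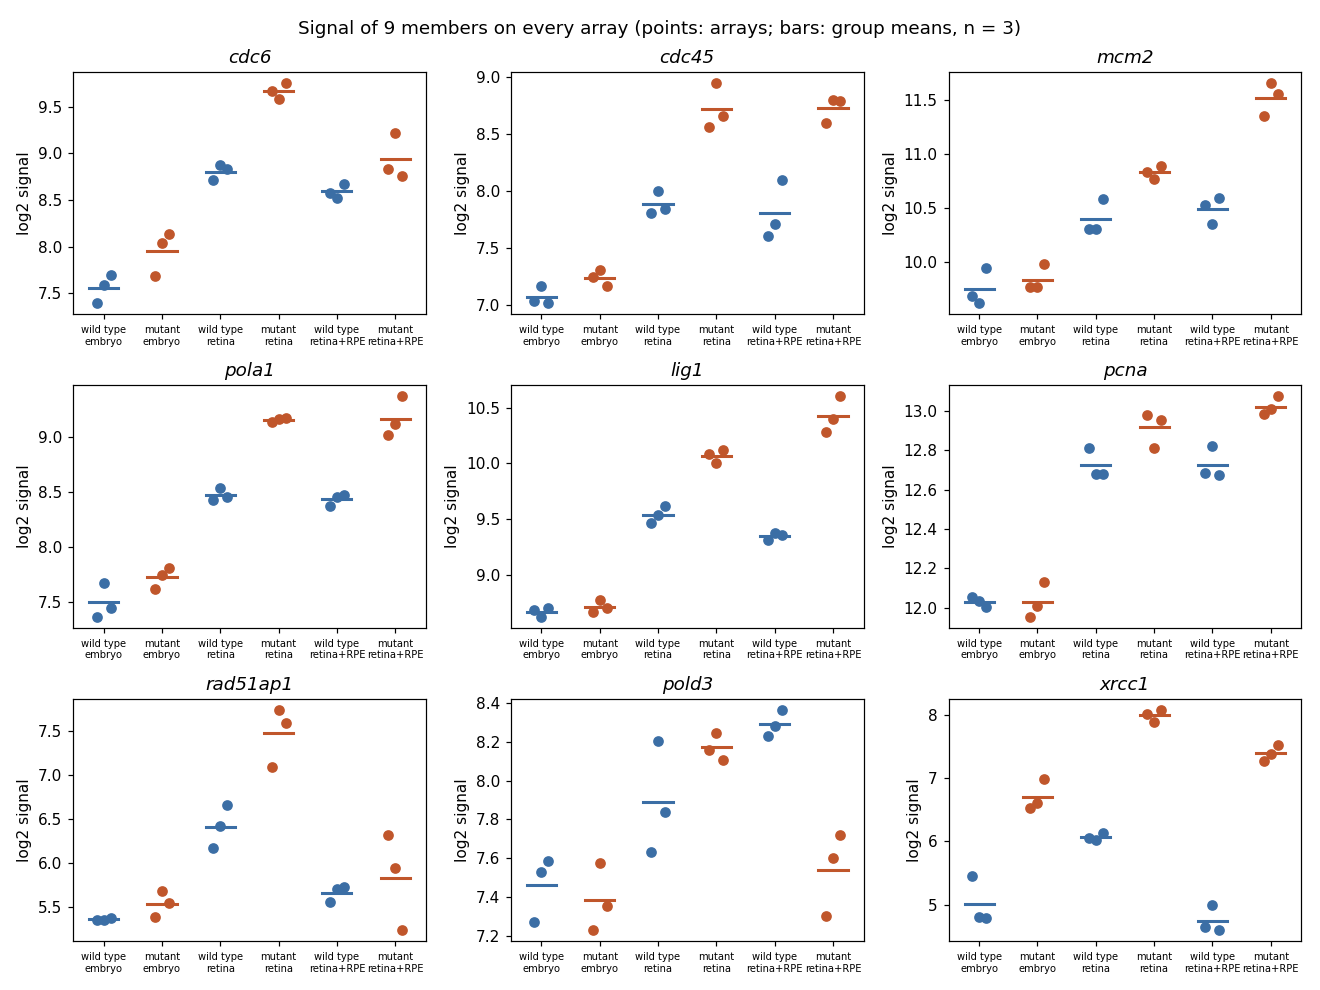
Log2 signal of 9 members on every array, with the 6 groups on the x axis of each panel, points for arrays and bars for group means. Mutant retina lies above wild type retina without overlap for cdc6, cdc45, mcm2, pola1, lig1, rad51ap1 and xrcc1, and by a narrow margin for pcna. In embryos xrcc1 is separate by a wide margin, and cdc45 and rad51ap1 by narrow ones. pold3 falls in mutant RPE-attached retina. The share of all probe sets separate in these ways was not counted.

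Mutant and wild type were then compared in retina with the RPE attached, which used other arrays throughout. Here 36 members rose and 4 fell, while 26.7% of the probe sets tested rose and 20.2% fell. The median member difference was 0.49 beside 0.06 over all probe sets. By role, 15 of the 21 licensing and helicase genes rose and 1 fell (median 0.65), 4 of 9 polymerase genes rose and 1 fell (0.33), and 6 of 10 clamp and lagging-strand genes rose (0.50). In nucleotide supply 3 of 5 rose and 1 fell, of the rad5 genes 4 of 7 rose and 1 fell, and all 3 xrcc genes rose. Other values moved with genotype in these pools. Neuron markers had means of 9.41 to 9.53 on wild type and 7.74 to 7.86 on mutant arrays, with 6 of 7 lower. The 2 measured vessel markers were higher, at 7.05 to 7.12 and 7.74 to 8.05, and 3 of 5 RPE and melanin markers were higher, at 8.02 to 8.45 and 8.58 to 8.85. Their part in the result was not tested. Pool size, at 10 and 6 tissues, and the controls given above also differed, and cannot be told apart from genotype in this tissue.

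The helicase subunits rose in these pools: mcm2 by 1.02 ± 0.12 (adjusted p = 8.44e-07), mcm3 by 1.14 ± 0.12, mcm4 by 0.66 ± 0.13, mcm5 by 0.66 ± 0.12 and mcm7 by 0.65 ± 0.11. A second mcm3 probe set also rose, by 0.54 ± 0.12 (adjusted p = 8.9e-04). mcm6 and mcm6l stood at 0.03 ± 0.11 and 0.25 ± 0.13, uncalled. orc1 read 7.74, 7.76 and 7.77 in wild type and 8.86, 8.96 and 9.11 in mutants, a 2.33-fold rise (1.22 ± 0.10, adjusted p = 9.43e-09). The other origin genes orc2 (0.69 ± 0.14), orc4 (0.76 ± 0.19), orc5 (0.64 ± 0.12) and orc6 (0.74 ± 0.12) rose, orc3 at 0.13 ± 0.13 being uncalled. cdc45 read 7.60, 7.71 and 8.09 against 8.60, 8.80 and 8.78 (0.92 ± 0.12). cdc6, among the larger rises in bare retina, read 8.58, 8.52 and 8.67 against 8.83, 9.22 and 8.75 and rose by 0.34 ± 0.13 (adjusted p = 0.0376), a call lost without wild type RPE-attached replicate 1 or 2 or mutant RPE-attached replicate 2 (0.0844 to 0.219).

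Further along the fork, pole2 read 7.90, 7.88 and 7.58 in wild type and 9.02, 8.85 and 9.42 in mutant RPE-attached retina, a 2.48-fold rise (1.31 ± 0.12, adjusted p = 5.93e-08). lig1 read 9.31, 9.37 and 9.36 against 10.28, 10.40 and 10.60 (1.08 ± 0.09, adjusted p = 2.79e-08). Arrays of both genes were separate between genotypes. pola1 rose by 0.73 ± 0.11, pold1 by 0.52 ± 0.10, rfc3 by 0.92 ± 0.11, rfc4 by 0.70 ± 0.11, rpa1 by 0.73 ± 0.11 and fen1 by 1.04 ± 0.16. pcna read 12.68, 12.82 and 12.68 in wild type and 12.98, 13.01 and 13.07 in mutants, a rise of 0.30 ± 0.09 (1.23-fold, adjusted p = 0.0108). It was called under 25 of 26 alternatives, with an adjusted p of 0.057 when only these 6 arrays were fitted. Among those not called, rfc1 stood at 0.31 ± 0.12 (adjusted p = 0.0501), prim1 at 0.30 ± 0.14, rpa2 at 0.21 ± 0.22 and rpa3 at -0.07 ± 0.13. rfc5 read 8.19, 8.30 and 8.27 against 8.27, 8.47 and 8.36, overlapping groups with a difference of 0.11 ± 0.12.

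Among nucleotide and repair genes, tyms read 9.64, 9.90 and 9.73 in wild type and 10.71, 10.81 and 10.78 in mutant RPE-attached retina, a 2.01-fold rise (1.01 ± 0.17, adjusted p = 9.15e-05). rrm2l rose by 0.72 ± 0.12 and rrm1 by 0.54 ± 0.14. rad54l read 6.72, 6.60 and 6.70 against 7.57, 7.72 and 7.77 (1.01 ± 0.11), and rad51d 5.64, 5.61 and 5.78 against 6.47, 6.49 and 6.86 (0.93 ± 0.15). Here the rad51d groups were separate, which they were not in bare retina. rad54l2, a remodelling ATPase named for its likeness to Rad54, rose by 1.11 ± 0.14. xrcc5 read 8.06, 7.98 and 8.13 against 8.56, 8.46 and 8.58 (0.48 ± 0.10), and xrcc6 8.14, 8.17 and 8.34 against 8.50, 8.78 and 8.66 (0.43 ± 0.10). Both Ku genes were thus separate by genotype in these pools, and msh6 rose by 0.39 ± 0.10. rad51ap1 read 5.55, 5.70 and 5.72 against 6.32, 5.95 and 5.23; its mutant arrays spread widely around the wild type values, and it was not called (0.18 ± 0.20), although it was without mutant RPE-attached replicate 3 (adjusted p = 0.0314). chaf1b read 6.40, 6.69 and 6.74 against 6.002, 6.53 and 6.23, overlapping groups with a difference of -0.36 ± 0.15 (adjusted p = 0.0556). It was called lower without wild type embryo replicate 1, wild type retina replicate 2, wild type RPE-attached replicate 1 or mutant RPE-attached replicate 2 (0.0147 to 0.0487).

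The 4 members that fell did so in these pools. pold3, an accessory subunit of the lagging-strand polymerase, read 8.23, 8.28 and 8.37 in wild type and 7.30, 7.60 and 7.72 in mutants, a separate fall of -0.75 ± 0.14 (1.68-fold, adjusted p = 2.1e-04) that was called under 26 of 26 alternatives. The others were smaller and less stable. mcm9, a helicase of recombination repair, read 6.25, 5.84 and 6.04 against 5.77, 5.74 and 5.76 (-0.29 ± 0.11, adjusted p = 0.0397), and its call was lost without wild type RPE-attached replicate 1 or 3 or any 1 mutant RPE-attached array (0.0613 to 0.212). rad51c read 6.71, 6.76 and 6.84 against 6.46, 6.13 and 6.62 (-0.37 ± 0.13, adjusted p = 0.023; 0.0762 without wild type RPE-attached replicate 3 and 0.143 without mutant RPE-attached replicate 2). rrm2b read 4.47, 4.33 and 4.35 against 4.17, 4.02 and 4.00 (-0.32 ± 0.12, adjusted p = 0.0419), all in the background range, and that call was lost without any 1 wild type RPE-attached array or mutant RPE-attached replicate 2 or 3 (0.062 to 0.129). rad54b, a relative of rad54l, rose by 0.39 ± 0.14, and lost its call without wild type RPE-attached replicate 1 or mutant RPE-attached replicate 1 or 2 (0.0647 to 0.173).

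Set side by side, 22 members rose in both retina comparisons and were not called in embryos, and xrcc1 rose in all 3 tissues. In bare retina alone gins2, prim1, rfc5, chaf1b and rad51ap1 were called, and with the RPE attached alone 13 rose (orc4, mcm3, mcm4, mcm5, mcm7, pcna, fen1, tyms, msh6, rad54b, rad54l2, xrcc5 and xrcc6). A further 12 members were not called in any tissue: orc3, mcm6, mcm6l, gins1, pold2, pole3, pole4, rfc1, rpa2, rpa3, dut and rad51b. The share of all probe sets with each of these patterns was not counted, so the counts are not set against a background. With the block, mcm3, fen1, tyms and rad54l2 of the 13 were called higher in bare retina. So were orc3, pold2, rpa2 and rpa3 of the 12, and dut was called lower in embryos. Of the 22, orc1, cdc6, cdt1 and rrm2l were called higher in embryos with the block. Of the members that fell with the RPE attached, pold3 was called higher in bare retina and rrm2b, in the background range, higher in embryos. A call in one tissue and not in another does not show a difference between them, so the differences were tested as an interaction. The genotype difference was larger with the RPE attached than in bare retina for 11 members and smaller for 5, with 11.6% and 8.61% of probe sets tested called in these directions. The share of members called lower is close to that background. Pool size and control signals of the mutant RPE-attached arrays also differed, and cannot be told apart from a tissue difference of the genotype effect. The 3 lens markers rose in mutant bare retina and were not called with the RPE attached. Their part was not tested. Those larger with the RPE attached were rad54l2 (by 0.88 ± 0.19), mcm3 (0.79 ± 0.17), pole2 (0.73 ± 0.17), xrcc1 (0.72 ± 0.22), orc1 (0.66 ± 0.14), rad54l (0.60 ± 0.16), mcm2 (0.60 ± 0.16), lig1 (0.55 ± 0.13), mcm5 (0.55 ± 0.17), mcm7 (0.52 ± 0.16) and xrcc6 (0.50 ± 0.15). Those smaller were pold3 (-1.03 ± 0.20, adjusted p = 0.00141), chaf1b (-0.94 ± 0.21), rad51ap1 (-0.88 ± 0.29), rfc5 (-0.67 ± 0.16) and gins2 (-0.62 ± 0.19). Of the 16, gins2, mcm5, mcm7, rad51ap1, xrcc1 and xrcc6 lost the call without at least 1 array of the 4 groups, with adjusted p of 0.0518 to 0.0973. The second mcm3 probe set gave 0.29 ± 0.17 and was not called.

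**Figure D4:**
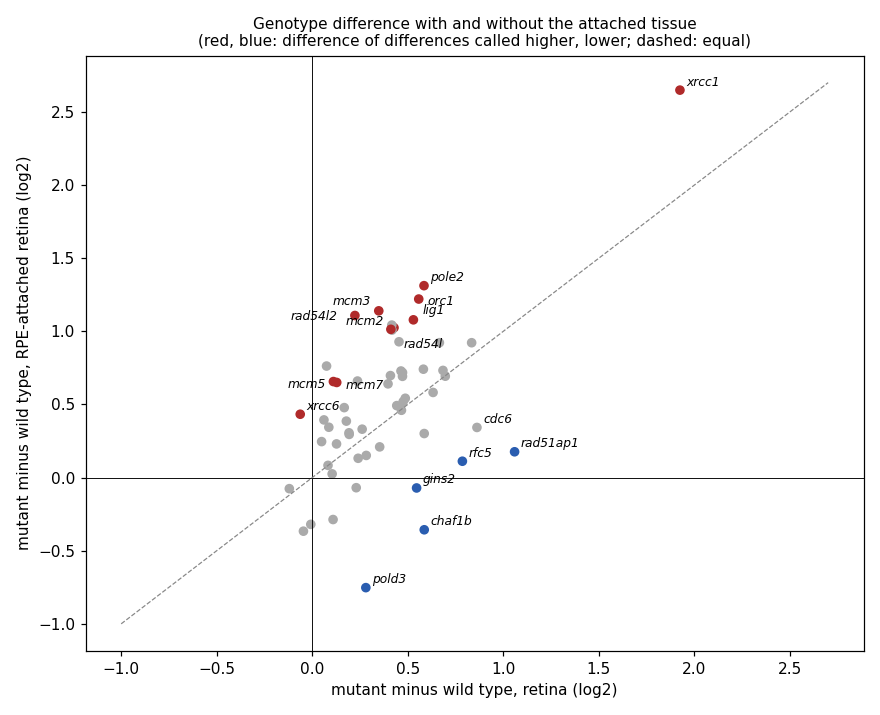
Genotype difference of each member in retina (x axis) and in RPE-attached retina (y axis), both as log2 differences, with a dashed line where they are equal. Red and blue points mark the 11 members whose difference was larger and the 5 whose difference was smaller with the RPE attached; xrcc1 is at the upper right and pold3 at the bottom.

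The same tissues were compared within wild type, on arrays that the tests above share. There 10 members (17.5%) were higher with the RPE attached and 11 (19.3%) lower, against 15.2% and 14% of probe sets tested. Both shares are near that background, and the median member difference was 0.00. The poly-A controls also differed, at 5.58 ± 0.04 (SD, n = 3) with the RPE attached and 4.91 ± 0.20 in bare retina. No batch is stated, so any difference in array handling cannot be told apart from the tissue. The split moved with the scaling: it was 10 higher and 8 lower after quantile normalization was applied again, and 3 higher and 14 lower with array medians subtracted, with medians of 0.08 and -0.07. Shares of all probe sets under these scalings were not counted. Lower with the RPE attached were xrcc1 (-1.33 ± 0.16, adjusted p = 1.09e-05), orc6 (-1.14 ± 0.12), pole3 (-0.97 ± 0.18), rad51ap1 (-0.75 ± 0.20), gins4 (-0.69 ± 0.12), rpa3 (-0.64 ± 0.13), mcm7 (-0.58 ± 0.11), mcm3 (-0.58 ± 0.12), mcm4, gins3 and orc1. The second mcm3 probe set, at 0.07 ± 0.12, did not share the fall. Higher were prim1 (0.47 ± 0.14), mcm6 (0.43 ± 0.11), rfc3 (0.41 ± 0.11), rad51c, chaf1b, pold3, rfc4, xrcc5, pold1 and rad51b. The count of 21 dropped to 13 without wild type retina replicate 1, to 13 without wild type RPE-attached replicate 2 and to 11 without wild type RPE-attached replicate 3.

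Mutant and wild type were also compared in whole embryos. xrcc1 alone was called among 57 members (1.75%), while 3.39% of the probe sets tested rose and 3.34% fell. The median member difference was 0.05 beside 0.00 over all probe sets. The 95% intervals of the 56 uncalled members lay between -0.67 and 0.67, and 8 members had an unadjusted p under 0.05 in limma. The outer bounds exceed the median member difference in retina, 0.41, so a missing call does not show that the genotypes were alike. cdc6 read 7.39, 7.59 and 7.69 in wild type and 7.68, 8.04 and 8.13 in mutant embryos (0.40 ± 0.13, adjusted p = 0.0803), and rrm2l 11.15, 11.28 and 11.38 against 11.31, 11.57 and 11.79. In these the third replicate was the highest in both genotypes. With the replicate block 7 members were called, against 8.5% of probe sets higher and 7.79% lower. The share of members that rose is close to that background, and the share that fell is below it. Those that rose were xrcc1, cdc6 (0.40 ± 0.09, adjusted p = 0.00631), cdt1 (0.29 ± 0.08), orc1 (0.28 ± 0.08), rrm2l (0.28 ± 0.09) and rrm2b (0.39 ± 0.11, in the background range), and dut, which removes dUTP, fell by 0.34 (SE 0.11, adjusted p = 0.0405). Without the block, 2 members were called when mutant embryo replicate 1 (cdc6 added), mutant embryo replicate 2 (rrm2b added) or mutant RPE-attached replicate 2 (cdc6 added) was left out. pcna read 12.05, 12.03 and 12.003 in wild type and 11.95, 12.01 and 12.13 in mutant embryos, a difference of 0.00 ± 0.09. Neuron markers ran from 9.84 to 10.11 on wild type and from 9.47 to 9.61 on mutant embryo arrays.

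Whether the genotype difference in retina differed from that in embryos was tested directly. It was larger in retina for 6 members and smaller for 0, with 2.41% and 4.47% of probe sets tested in these directions. These were cdc45 (by 0.66 ± 0.18, adjusted p = 0.0231), rfc5 (0.66 ± 0.16, adjusted p = 0.0141), rfc3 (0.57 ± 0.15, adjusted p = 0.021), gins4 (0.56 ± 0.16, adjusted p = 0.0406), pola2 (0.53 ± 0.15, adjusted p = 0.0426) and lig1 (0.48 ± 0.13, adjusted p = 0.0284). The median over members was 0.34 beside 0.03 over all probe sets, and this comparison shares its retina arrays with the one above. With the replicate block over the 12 embryo and retina arrays 21 members were called, all larger in retina, against 6.47% of probe sets larger and 8.46% smaller. They included those 6 and cdc6, cdt1, mcm2, pola1, pole2, pold1, rpa1, rrm1, tyms (0.58) and rad51ap1 (0.88). Without the block the 6 calls were fragile: 1 was left without wild type retina replicate 1, 2 without wild type embryo replicate 2, and 3 without wild type embryo replicate 3, any 1 mutant embryo array, wild type retina replicate 2 or mutant retina replicate 3. For xrcc1 the difference was 0.23 ± 0.22, uncalled.

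Other genes of the same pathways were counted from lists that leave the members out. These lists too were chosen with earlier results of these data known. Of all probe sets tested, 8.88% rose and 9.41% fell in mutant retina, and 26.7% rose and 20.2% fell with the RPE attached. Of 32 further replication genes on the array, 16 rose and 0 fell in mutant retina, with a median of 0.37, and 20 rose and 2 fell in mutant RPE-attached retina. Those with the smallest p in retina were terf1, a telomere-binding protein (1.15 ± 0.12), atad5b (0.92 ± 0.11), whose mammalian relative unloads the clamp, ticrr (0.88 ± 0.12), needed to fire origins, and wdhd1 (0.74 ± 0.10). Of 55 further repair genes, 21 rose and 1, the end-joining gene nhej1 (-0.62 ± 0.19), fell in retina, with a median of 0.23, and 29 rose and 9 fell with the RPE attached. The 16.4% of repair genes that fell with the RPE attached is below the 20.2% of all probe sets. The junction nuclease subunits mus81 (0.80 ± 0.09) and eme1 (0.74 ± 0.11), palb2 (0.91 ± 0.13) and rad18 (0.65 ± 0.12) led the retina rises. Of 22 further nucleotide genes 4 rose and 2 fell in retina, with a median of 0.10, and 10 rose and 5 fell with the RPE attached, with a median of 0.23. The shares that fell, 9.09% and 22.7%, are close to the 9.41% and 20.2% of all probe sets. In retina guk1b, a guanylate kinase, fell by -1.98 ± 0.21, and uck2b rose by 0.73 ± 0.10, mthfd2 by 0.87 ± 0.21 and dhodh by 0.42 ± 0.11.

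Regulators of the S phase and of division were counted in the same way. Of 30 listed regulators 20 rose and 0 fell in retina, with a median of 0.55, and 22 rose and 3 fell with the RPE attached, with a median of 0.85. mybl1, a transcription factor, rose by 1.75 ± 0.12 in retina and, like xrcc1, in embryos (1.72 ± 0.12), foxm1 by 0.93 ± 0.11, cdk2 by 0.87 ± 0.11 and cdc25b by 1.39 ± 0.20 in retina. Of 19 mitosis genes 17 rose in retina, with a median of 0.51, and 12 with the RPE attached. Among them were the kinetochore genes nuf2 (0.91 ± 0.13) and ndc80 (0.81 ± 0.13), the centriole kinase plk4 (0.85 ± 0.12) and kif23 (0.84 ± 0.13). In embryos these 5 lists held 2 higher of 32 replication genes, 1 higher and 1 lower of 55 repair genes, 2 higher and 1 lower of 22 nucleotide genes, 4 higher of 30 regulators and 0 of 19 mitosis genes (medians 0.11, 0.06, 0.08, 0.20 and 0.06). Of all probe sets tested, 3.39% rose and 3.34% fell in embryos, and the repair and mitosis shares lay below these. In wild type retina against embryo all 32 replication and all 19 mitosis genes were higher, against 44.5% of the probe sets tested, with 19.6% lower. Of 30 regulators 26 were higher and 0 lower, and of 55 repair genes 42 were higher and 4 lower. The 22 nucleotide genes were divided, with 9 higher and 9 lower. Their share higher, 40.9%, is close to that of all probe sets.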

How the data were processed

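Affymetrix zebrafish arrays measured RNA from 18 pools, labelled by a two-cycle protocol per the labels' protocols. The deposited values are log2 signals that the authors made with RMA, which corrects background, normalizes between arrays and combines probes; the submitters' processing notes list affy, with no version, and R 2.2.0. No depth is stated for arrays, whose number sets the precision. Such normalization sets arrays to one distribution, so every difference is relative to the other genes of the array. Of 15617 probe sets 115 controls were left out; 10795 of the rest had 1 gene symbol, 135 several and 4572 none. All 57 members matched the gene table of assembly GRCz12tu by symbol, and 4 had a second probe set. Fits used limma 3.58.1 in R 4.3.3, with 1 mean per group over all arrays and no filter on low values; the fit was tested on simulated data. Figures used Python 3.11.15 and matplotlib 3.10.9. The members, their classes and the gene lists were chosen with earlier results of these data known.

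Values in every array are given for pcna, for the 3 members of each class with the smallest p in retina, for members called in embryos and for members that fell in any mutant comparison; other pathway lists show up to 4 genes with the smallest p in retina, and others named here were chosen after their values were seen. Replicate numbers were checked as pairs: deviations from group means correlated across probe sets at 0.29 to 0.60 for same-numbered arrays of every pair of embryo and retina groups, and at -0.20 to 0.16 in pairs with an RPE-attached group, so the numbers were taken to pair the 12 embryo and retina arrays. The pairing comes from the data and the shared numbers, not from a stated batch, and no scan date is given. The alternatives were a threshold of 0.001 (that of the series design), a minimum of 2-fold, dim probe sets left out, 1 probe set per gene, quantile normalization again, array medians subtracted, array weights, moderation that is trended and robust, fits of only the compared groups or only the 12 embryo and retina arrays, replicate blocks, the dimmer probe set of a member, and each array left out in turn. RPE values estimated by the submitters were not used here, and promoter sequences were not analysed here.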

Additional observations from a re-analysis of the deposited data

Results flagged for a closer look

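For 22 results a test of the difference between genotype effects in 2 tissues was called by limma at an adjusted p under 0.05. Larger in retina than in whole embryos were the effects on cdc45 (by 0.66), gins4 (0.56), pola2 (0.53), rfc3 (0.57), rfc5 (0.66) and lig1 (0.48). For these the genotype difference was 0.83, 0.63, 0.44, 0.67, 0.79 and 0.53 in retina and 0.17, 0.07, -0.09, 0.09, 0.12 and 0.04 in embryos.

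Larger in RPE-attached than in bare retina were the effects on orc1 (by 0.66), mcm2 (0.60), mcm3 (0.79), mcm5 (0.55), mcm7 (0.52), pole2 (0.73), lig1 (0.55), rad54l (0.60), rad54l2 (0.88), xrcc1 (0.72) and xrcc6 (0.50). Smaller there were gins2 (-0.62), pold3 (-1.03), rfc5 (-0.67), chaf1b (-0.94) and rad51ap1 (-0.88). pold3 went from 0.28 in bare retina to -0.75 with the RPE attached, where it was called lower; chaf1b went from 0.59, called higher, to -0.36 (adjusted p = 0.0556). lig1 is the 1 member larger in both tests, and rfc5 is larger in retina than in either other tissue. No test for outlying arrays was run, but each array was left out in turn. Over the alternatives other than the stricter thresholds and the dimmer probe sets, 0 of the 6 calls against embryos held in every one. Of the 16 calls against bare retina, 10 did. In the results with the RPE attached, pool size and control signals differed with genotype and cannot be told apart from it.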

How the results depend on the processing

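The counts of members called were 28 in retina, 40 in RPE-attached retina, 1 in embryos, 21 between wild type RPE-attached and bare retina, 57 between wild type retina and embryo, 6 for retina against embryo effects and 16 for RPE-attached against bare retina effects. At the 0.001 threshold of the series design they became 11, 28, 1, 5, 43, 0 and 0, and with a minimum of 2-fold 2, 10, 1, 2, 9, 0 and 1. Array weights gave 3 members in embryos. A replicate block fitted over all 18 arrays called 2 in embryos, and a replicate block over 12 arrays, those of embryo and retina, called 37 in retina, 7 in embryos and 21 for the retina against embryo effect, which had 23 at an unadjusted p under 0.05 without it. It ended no call of the 4 comparisons it could be fitted to and added 9 in retina. Leaving out 1 array in turn gave 21 to 30, 36 to 42, 1 to 2, 11 to 22, 55 to 57, 1 to 8 and 12 to 18 members. Shares of all probe sets were counted only for the main fit and for the block over 12 arrays. Member counts under the other settings therefore cannot be set against a background. Over the alternatives other than the stricter thresholds and the dimmer probe sets, 18 of 28 retina calls and 34 of 40 RPE-attached calls held in every one, as did 55 of 57, 10 of 21 and 10 of 16 in the later comparisons, and 0 of 6 for the retina against embryo effect. The 1 reversed sign was mcm3 between wild type RPE-attached and bare retina, -0.58 with its brighter and 0.0749 with its dimmer probe set; the cause was not tested. Depth does not apply to arrays. Background limits rrm2b in all groups, xrcc1 in wild type RPE-attached retina and wild type embryos, and rad51d in embryos of both genotypes.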

Other observations

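Across the 6 group means, the genes outside the members whose levels followed the mean of the 57 members most closely were ubxn7 (Pearson r = 0.9995), depdc1a (0.998), cltcb (0.997), med24 (0.997) and haus4 (0.996). These are correlations over 6 points, taken as the highest of all named genes, and describe likeness of level only. Of the members themselves 39 had r above 0.9 with that mean, and the lowest were rrm2b (0.33), pold3 (0.54), xrcc1 (0.59) and orc6 (0.61). Each member is itself part of that mean. The share of all named genes above 0.9 was not counted, so the count has no background.

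The neighbours of xrcc1 were looked at after its values were seen. Within 10 protein-coding genes on either side in the gene table, 5 were measured. ggctb, 8 genes away, was lower in mutant retina (-0.53, adjusted p = 0.00381) and in mutant RPE-attached retina (-0.38, adjusted p = 0.0174), at -0.07 in embryos. nr0b2a, 6 genes away, was higher in mutant embryos (1.44, adjusted p = 7.53e-06) and in mutant RPE-attached retina (0.51, adjusted p = 0.0144), as xrcc1 was, and stood at -0.04 in retina. drd2l, the next gene, stood at 0.06, -0.38 and -0.02 in retina, RPE-attached retina and embryos, pabpc1a at -0.10, -0.46 (called lower, adjusted p = 6.59e-04) and 0.01, and wdtc1 at -0.30, -0.22 and -0.14. None of these 5 rose in all 3 tissues.

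smarca4a shares its chromosome with mcm5, 149 protein-coding genes away, and pold1, 56 away, among the members.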
